A study of Mus musculus with 4 samples.

Results

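The genes examined here are Arg1, Mrc1, Chi3l3 and Retnla, which are read as markers of alternative activation in mouse macrophages. The data are peaks of histone H4 acetylation from chromatin immunoprecipitation and sequencing (ChIP-seq) in bone marrow-derived macrophages on day 7 of differentiation from C57BL/6 marrow. Members were all peaks that overlap 4 windows of the mm9 mouse genome: chromosome 10, 24600000 to 24680000 (Arg1, 80 kb), chromosome 2, 14130000 to 14270000 (Mrc1, 140 kb), chromosome 3, 105940000 to 105990000 (Chi3l3, 50 kb) and chromosome 16, 48830000 to 48860000 (Retnla, 30 kb). They number 43 of the 175801 peaks in the 4 deposited lists, with 33 in the Arg1 window, 10 in the Mrc1 window and 0 in the Chi3l3 and Retnla windows.

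Each of 4 groups had 1 library. Cells were HDAC3 -/- (HDAC3 KO) or HDAC3 +/- (named wt by the submitters, so the controls themselves lack an Hdac3 allele), and were treated for 4 h with lipopolysaccharide (LPS, a bacterial cell wall component) at 100 ng/ml or left untreated. The series asks what HDAC3 contributes to the inflammatory gene program of macrophages. How Hdac3 was deleted and how many mice were used is not given in the sources used here. The L929-conditioned medium in which the cells grew is a usual source of the growth factor M-CSF. With 1 library a group there is no replicate spread, so every difference below is between libraries and carries no test. Markers of macrophages or of other cells were not examined, because no mm9 gene annotation was used.

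Acetylated histone H4 is found at promoters and enhancers in use, and HDAC3 removes acetyl groups from histones within corepressor complexes. Alternative activation is the state that macrophages take up under interleukin-4 or interleukin-13, through the transcription factor STAT6. Arg1 encodes arginase 1, which splits arginine into ornithine and urea and competes for arginine with the enzyme that makes nitric oxide. Arg1 can also be induced by Toll-like receptor ligands such as LPS. Mrc1 encodes the mannose receptor (CD206), an endocytic receptor on the cell surface. Chi3l3, now named Chil3, encodes the secreted chitinase-like protein Ym1, and Retnla encodes the secreted resistin-like protein alpha (FIZZ1).

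The promoters of Mrc1, Chil3 and Retnla, the 3 genes matched in the promoter table (Arg1 was not matched), are shown to set a gene whose window held peaks in every library beside genes whose windows held none. They are the 250 bases before each RefSeq gene start on GRCm38.p6, a later build than mm9, and their positions cannot be set against the peak positions given below. Capitals mark matches, on either strand, to the motifs TATAAA (the element that positions RNA polymerase at many gene starts, known as the TATA box), TTCNNNNGAA (a spacing of STAT binding sites that STAT6 favours), TTCNNNGAA (the narrower STAT spacing) and GAGGAA (the core letters bound by the macrophage factor PU.1), and a search for TGANTCA (AP-1) found no match in these windows. The promoters are, in order, chr2:14229164-14229413 on the plus strand, chr3:106167565-106167814 on the minus strand and chr16:48842359-48842608 on the plus strand.
Mrc1: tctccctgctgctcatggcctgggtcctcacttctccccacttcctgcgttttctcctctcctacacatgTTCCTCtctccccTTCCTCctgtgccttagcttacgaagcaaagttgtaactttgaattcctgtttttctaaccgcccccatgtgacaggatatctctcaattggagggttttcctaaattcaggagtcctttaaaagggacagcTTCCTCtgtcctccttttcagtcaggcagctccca
Chil3: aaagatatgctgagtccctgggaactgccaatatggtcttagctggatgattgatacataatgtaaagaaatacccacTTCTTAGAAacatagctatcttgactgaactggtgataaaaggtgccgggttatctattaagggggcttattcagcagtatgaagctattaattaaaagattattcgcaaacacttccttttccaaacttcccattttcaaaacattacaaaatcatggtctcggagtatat
Retnla: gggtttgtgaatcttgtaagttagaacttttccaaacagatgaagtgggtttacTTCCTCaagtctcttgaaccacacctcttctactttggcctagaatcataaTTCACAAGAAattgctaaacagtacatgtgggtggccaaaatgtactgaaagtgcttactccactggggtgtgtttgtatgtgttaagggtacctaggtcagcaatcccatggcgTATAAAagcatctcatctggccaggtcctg

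Mrc1 had 3 matches to the PU.1 core, at 180, 167 and 35 bases before the start, and no match to the other motifs searched. Chil3 had 1 match, to the narrower STAT spacing at 172 bases before the start. Retnla had 1 match each to the TATA box, the wider STAT spacing and the PU.1 core, at 30, 145 and 196 bases before the start. Over all 32851 promoter entries of the table, the same 250 bases held the TATA box motif in 12.4%, the wider STAT spacing in 5.85%, the narrower in 7.02%, the PU.1 core in 23.3% and the AP-1 motif in 6.75%. The 3 promoters held 3, 3 and 1 CpG, in the order Mrc1, Chil3 and Retnla, against a median of 6 over all entries. Entries with at most 3 CpG made up 37.8% of the total, and entries with at most 1 CpG 18.8%. A match is a description of letters and not of a bound site.

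The lists held 45589 peaks covering 50.4 Mb in LPS-treated HDAC3 KO, 39550 covering 37.4 Mb in LPS-treated wt, then 41956 covering 36.4 Mb in untreated HDAC3 KO and 48706 covering 35.4 Mb in untreated wt. How deeply each was sequenced is unknown. Each peak carries a score given by the authors on a scale they do not state, and such a score moves with sequencing depth and the input. It was therefore used to rank a peak within its own list, as a percentile from 0 for the weakest to 100 for the strongest. The lowest score was near 50 in every list, and the medians were 145, 141, 122 and 116 in the same order of libraries.

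The Arg1 window held peaks in all 4 libraries, and the list of LPS-treated HDAC3 KO stood apart in it. It had 15 peaks there, against 6 in LPS-treated wt, while untreated HDAC3 KO had 7 and untreated wt 5. These peaks covered 17.8 kb in LPS-treated HDAC3 KO, 4.52 kb in LPS-treated wt, 5.52 kb in untreated HDAC3 KO and 3.77 kb in untreated wt. Cover was therefore 22.3% of the window in the first of these libraries and 4.71 to 6.90% in the others. Per Mb covered anywhere in the list, the window took 354 bases in LPS-treated HDAC3 KO, 121 in LPS-treated wt, and without LPS 152 in HDAC3 KO and 106 in wt. Per Mb covered, the value was thus also highest in LPS-treated HDAC3 KO. The locus was picked through a peak of this library, as described below, so these values are a description. The part of sequencing depth and of the immunoprecipitation in them was not tested.

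**Figure D1:**
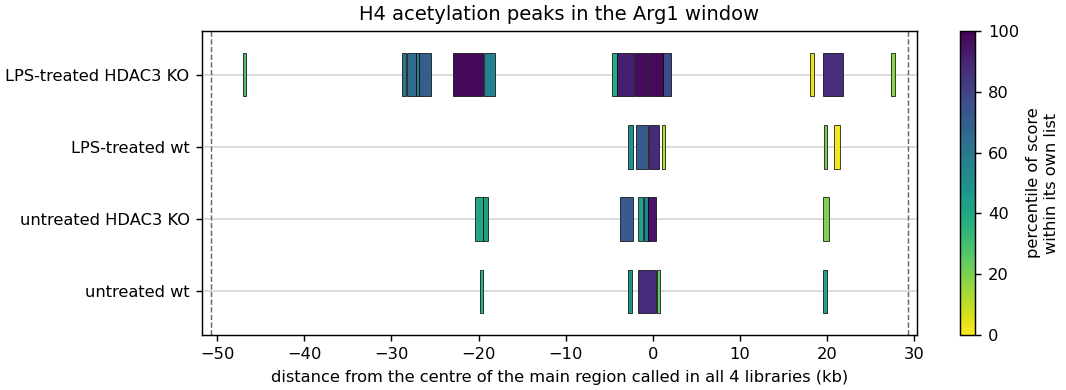
Peaks in the Arg1 window by library, with the distance in kb from the centre of the main region called in every library on the x axis and the colour giving the percentile of each peak's score within its own list (dashed lines, window edges). All 4 rows carry the central cluster and a peak near 20 kb, while the long block on the left, centred 21.2 kb away, is strong in LPS-treated HDAC3 KO, weak in the untreated libraries and not called in LPS-treated wt.

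Merged across the libraries, the peaks of the Arg1 window formed 13 regions. A peak in all 4 libraries was found in 3 of them, 1 had a peak in 3 libraries, 1 in the 2 HDAC3 KO libraries, and 8 in LPS-treated HDAC3 KO alone. Over all lists, 14.5% of 62522 merged regions were called in LPS-treated HDAC3 KO alone. The locus was chosen for a peak of this library that LPS-treated wt lacked, so nothing is read from the count. No region of this window was called in any other library alone. Over all lists, 8.27% of merged regions were called in untreated HDAC3 KO alone and 11.7% in untreated wt alone. The share for LPS-treated wt alone is not given, and nothing is read from this absence.

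The main region called in every library lay at chromosome 10, 24648685 to 24652778. Its peaks covered 3855 bp in LPS-treated HDAC3 KO, 2840 bp in LPS-treated wt, 2036 bp in untreated HDAC3 KO and 2450 bp in untreated wt. The strongest of these peaks was 24650231 to 24651911 in LPS-treated HDAC3 KO (score 1753, percentile 97.4) and 24650257 to 24651436 in LPS-treated wt (score 706, percentile 88.1). In the untreated libraries it was 24650221 to 24651145 in HDAC3 KO (673, percentile 94.6) and 24649015 to 24651139 in wt (408, percentile 88.0). The strongest peak of this region thus overlapped the same stretch in all 4 lists and ranked between percentiles 88.0 and 97.4. The lists split the region differently, with 3 peaks in LPS-treated HDAC3 KO, LPS-treated wt and untreated HDAC3 KO and 2 in untreated wt.

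A neighbouring region, at 24646669 to 24648585, was also called in every library. It measured 1917 bp in LPS-treated HDAC3 KO (score 895, percentile 91.5), 583 bp in LPS-treated wt (143, percentile 50.6), 1449 bp in untreated HDAC3 KO (233, percentile 71.8) and 507 bp in untreated wt (113, percentile 48.6). Here both HDAC3 KO libraries had the longer peak. With the main region and a small flanking peak at 24645994 to 24646622, called in LPS-treated HDAC3 KO alone, it formed a cluster that spanned 6785 bp in that library. The span was 4303 bp in LPS-treated wt, 4180 bp in untreated HDAC3 KO and 3658 bp in untreated wt. Against LPS-treated wt the cluster of LPS-treated HDAC3 KO began 1839 bp earlier and ended 643 bp later. This cluster made up 35.9% of the cover in the window in LPS-treated HDAC3 KO, and 75.7, 63.1 and 78.5% in LPS-treated wt, untreated HDAC3 KO and untreated wt. Most of the excess in LPS-treated HDAC3 KO therefore lay outside it.

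The third region called in every library lay 20.7 kb from the main one by centre, at 24670249 to 24672524. It was 1 peak of 2276 bp in LPS-treated HDAC3 KO (score 681, percentile 87.4). LPS-treated wt had a pair of weak peaks there covering 1098 bp, the stronger with a score of 70.4 (percentile 21.5). The peak was 666 bp in untreated HDAC3 KO (65.5, percentile 19.6) and 403 bp in untreated wt (96.7, percentile 42.1). It ranked below the median of its list in every library but LPS-treated HDAC3 KO.

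On the other side of the cluster, 21.2 kb from the main region by centre, LPS-treated HDAC3 KO had its highest-scored peak of the window. It spanned 24627799 to 24631243, a width of 3445 bp, with a score of 1807 (percentile 97.5). LPS-treated wt had no peak in this region. Untreated HDAC3 KO had a peak of 847 bp at 24630341 to 24631187 (96.6, percentile 40.5), and untreated wt one of 408 bp at 24630845 to 24631252 (85.6, percentile 35.9). Both weak peaks lay at the same end of the long one. Next to it, 24631342 to 24632588 was a peak in LPS-treated HDAC3 KO (1247 bp, 182) and 24631264 to 24631788 a peak in untreated HDAC3 KO (525 bp, 103), with none in either wt library. The Arg1 locus was chosen by the score of this long peak, which led the peaks of LPS-treated HDAC3 KO without a peak of LPS-treated wt nearby in an earlier reading of the same lists. The other 3 loci are genes of the same program. The values of this peak are therefore a description.

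The 8 regions called in LPS-treated HDAC3 KO alone were small, 347 to 1355 bp, and together covered 5095 bp or 28.6% of the cover in the window. Their scores ran from 53.1 to 301, and 4 of the 8 reached the median of the list. Those 4 lay side by side from 24621928 to 24625298, where peaks covered 3274 bp of a 3371-bp stretch that no other library had a peak in. The other 4 lay at 24603693 to 24604039, 24645994 to 24646622, 24668777 to 24669215 and 24678106 to 24678511. The peak at 24668777 had a score of 53.1, close to the lowest score of any list.

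Protein-coding genes on either side of Arg1 in the RefSeq annotation of GRCm38.p6 are Med23, a subunit of the Mediator complex, and Akap7, an anchoring protein for protein kinase A. Peak positions in mm9 were not assigned to exons, introns or start sites of these genes or of Arg1.

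With HDAC3 loss and LPS together, cover in the Arg1 window was 3.65-fold that of LPS-treated wt, with 500 bp added to both values to steady low ones (17.8 against 4.52 kb). A difference of at least 2-fold in this direction was found in 16.7% of the 12063 windows of 80 kb with a peak in either library. A difference of at least 13.3 kb, as here, was found in 68 of them (0.564%). Of the 15 peaks of LPS-treated HDAC3 KO in the window, 10 had no overlapping peak in LPS-treated wt, against 35.3% of all its peaks. None of the 6 peaks of LPS-treated wt lacked a partner in LPS-treated HDAC3 KO, against 19.5% of all its peaks. This is the comparison through which the locus was picked, so nothing is read from these shares.

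In untreated cells the genotypes were closer at Arg1. Cover was 5.52 kb in HDAC3 KO and 3.77 kb in wt, a ratio of 1.41 with the added 500 bp and short of 2-fold, which 4.26% of the 11930 windows of 80 kb reached in this direction. One of 7 peaks in untreated HDAC3 KO lacked a partner in untreated wt, against 24.6% of all its peaks, and 1 of 5 in untreated wt lacked one in untreated HDAC3 KO, against 29.3%. The unpartnered peaks were the ones at 24631264 in HDAC3 KO and at 24651208 to 24651532 in wt, with scores of 103 and 69.0.

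LPS against no treatment gave a 3.04-fold cover in HDAC3 KO (17.8 against 5.52 kb) and a 1.18-fold cover in wt (4.52 against 3.77 kb). In HDAC3 KO 22.6% of 11981 windows of 80 kb reached 2-fold in this direction, and in wt 12.2% of 12352 did. A difference of at least 0.753 kb, as here in wt, was found in 24.9% of the wt windows. In LPS-treated HDAC3 KO 9 of 15 peaks had no partner in the untreated library, against 39.9% of all its peaks, while 0 of 7 untreated peaks lacked a partner in the treated one, against 25.0%. For wt the numbers were 2 of 6 in the LPS-treated library, against 31.7%, and 1 of 5 in the untreated library, against 35.6%. The HDAC3 KO comparison uses the same LPS-treated library through which the locus was picked. In the 3 regions called in every library, LPS-treated wt had longer cover than untreated wt in each, by 76 bp at 24646669 to 24648585, 390 bp in the main region and 695 bp at 24670249 to 24672524. The share over all regions called in every library is not given, so nothing is read from this count. Part of the longer cover came from low-scored peaks of LPS-treated wt that overlapped no peak of untreated wt. These were 369 bp at 24651767 to 24652135 (score 58.95, percentile 11.4) and 708 bp at 24671562 to 24672269 (51.07, percentile 1.45). The peaks of the 2 wt libraries that did overlap at 24670249 to 24672524 were 390 bp with LPS and 403 bp without. LPS-treated wt had no peak where untreated wt had the weak one at 24630845.

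**Figure D2:**
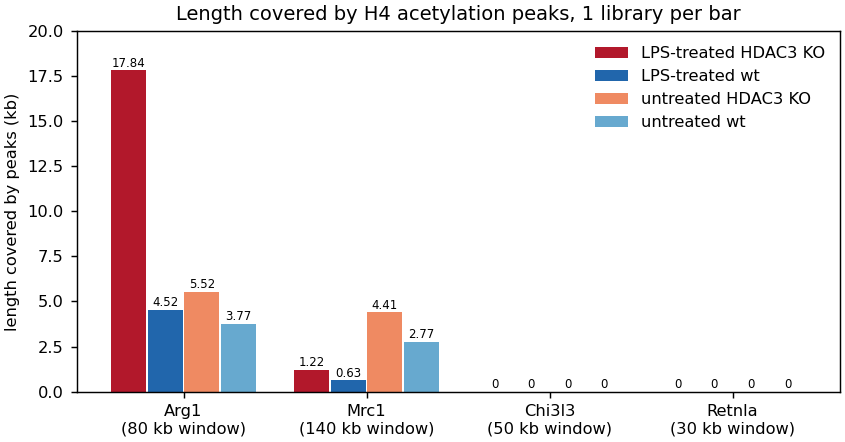
Length covered by peaks in kb, by locus and library, with 1 library per bar and no error bars because no group had replicates. The Arg1 bar of LPS-treated HDAC3 KO (17.8 kb) is more than 3 times any other, both LPS-treated bars are below both untreated ones at Mrc1, and Chi3l3 and Retnla are at 0.

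**Figure D3:**
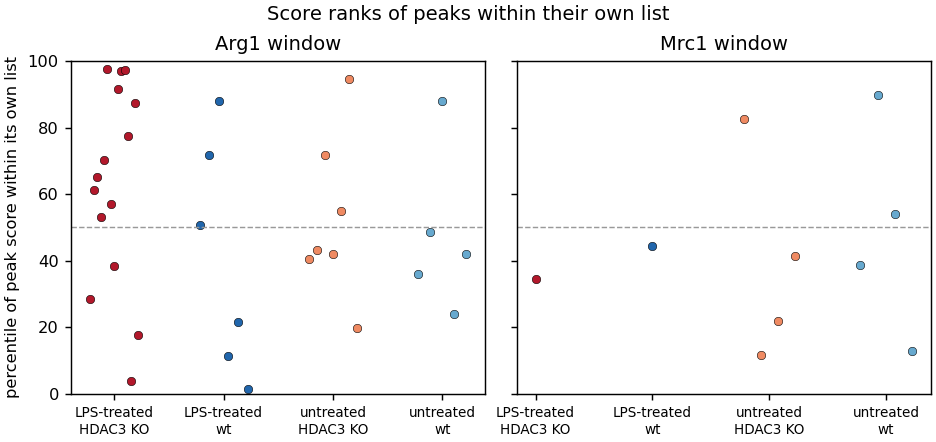
Percentile of each peak's score within its own list, by library, for the Arg1 and Mrc1 windows (dashed line, list median; points within a library are in order of position). At Arg1, 11 of 15 points of LPS-treated HDAC3 KO are at or above the median, against 3 of 6, 3 of 7 and 1 of 5 in LPS-treated wt, untreated HDAC3 KO and untreated wt, and at Mrc1 the single peaks of the LPS-treated libraries are below it.

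By rank within their lists, 11 of 15 Arg1 peaks reached the list median in LPS-treated HDAC3 KO, and 3 of 6 did in LPS-treated wt. Without LPS 3 of 7 did in HDAC3 KO and 1 of 5 in wt. Lists differ in length, so these ranks are set side by side and no change is drawn from them.

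At Mrc1 the calls went the other way with LPS, in both genotypes. The window held 1 peak in LPS-treated HDAC3 KO and 1 in LPS-treated wt, against 4 in each of the untreated libraries. Cover was 1.22 kb in LPS-treated HDAC3 KO, 0.634 kb in LPS-treated wt, 4.41 kb in untreated HDAC3 KO and 2.77 kb in untreated wt. Both LPS-treated libraries were below both untreated libraries.

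A single region of the Mrc1 window, at chromosome 2, 14149634 to 14151762, had a peak in all 4 libraries. It was 1223 bp in LPS-treated HDAC3 KO (score 94.6, percentile 34.5), 634 bp in LPS-treated wt (119, percentile 44.4), 2067 bp in untreated HDAC3 KO (347, percentile 82.5) and 1474 bp in untreated wt (444, percentile 89.7). In the untreated lists this peak ranked high, and in the LPS-treated lists it ranked below the median. In each treatment it was longer in HDAC3 KO than in wt.

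Within the window, the other 6 regions at Mrc1 were each called in 1 untreated library. Untreated HDAC3 KO had peaks at 14151905 to 14152685 (score 58.4), 14154904 to 14155476 (68.0) and 14166225 to 14167208 (98.8), all below its list median. Untreated wt had peaks at 14129443 to 14130473 (91.0), which crosses the window edge, 14171589 to 14172267 (129) and 14216735 to 14216881 (59.0), of which the peak at 14171589 was above its list median. No secondary peak within the window overlapped one of the other genotype. The peak at the edge did overlap peaks of both HDAC3 KO libraries that end before the window begins. It is counted with a partner for that reason, which leaves 3 regions called in untreated HDAC3 KO alone and 2 in untreated wt alone. Over all lists these patterns made up 8.27 and 11.7% of the merged regions.

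**Figure D4:**
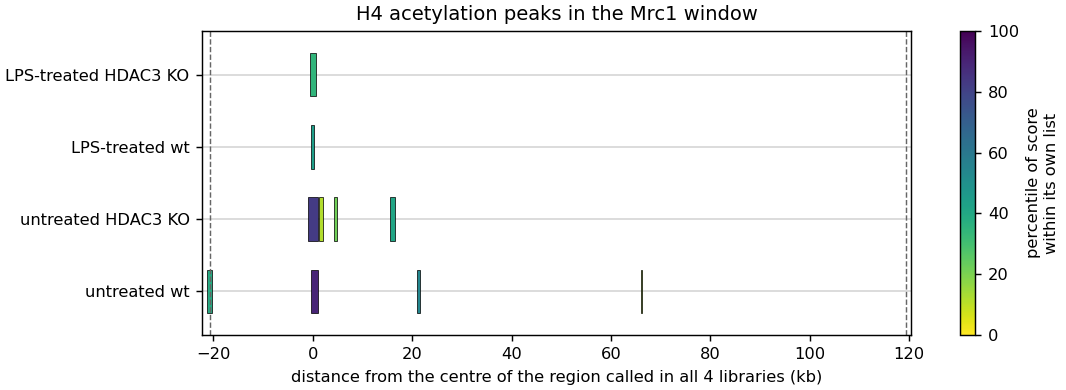
Peaks in the Mrc1 window by library, with the distance in kb from the centre of the region called in all 4 libraries on the x axis and the colour giving the percentile of each score within its own list (dashed lines, window edges). Both LPS-treated rows carry only the peak at 0, which is paler than in the untreated rows, and the secondary peaks of the untreated rows stand at different places.

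LPS against no treatment gave a cover ratio of 0.351 in HDAC3 KO (1.22 against 4.41 kb) and of 0.346 in wt (0.634 against 2.77 kb), with 500 bp added to each value. Both were past 2-fold. A loss of at least 2-fold was found in 4.66% of 8369 windows of 140 kb in HDAC3 KO and in 11.8% of 8595 in wt. A difference of -3.18 kb or lower, as here in HDAC3 KO, was found in 3.17% of its windows. One of -2.14 kb or lower, as here in wt, was found in 11.7%. In untreated HDAC3 KO 3 of 4 Mrc1 peaks had no partner with LPS, against 25.0% of all its peaks, and in untreated wt 3 of 4 had none, against 35.6%. The 2 comparisons share no library. In the other direction, each LPS-treated library's single peak had a partner in the untreated library.

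HDAC3 KO against wt gave a cover ratio at Mrc1 of 1.52 in LPS-treated cells (1.22 against 0.634 kb) and of 1.50 in untreated cells (4.41 against 2.77 kb), both short of 2-fold. The direction in LPS-treated cells rested on low-scored peaks: the difference was 0 kb among peaks at or above their list's median, where neither library had one, and -0.634 kb among peaks scored at least 100. Windows of 140 kb with at least 2-fold more cover in HDAC3 KO made up 15.5% of 8457 with LPS and 3.63% of 8348 untreated. In untreated HDAC3 KO 3 of 4 peaks lacked a partner in untreated wt, against 24.6% of all its peaks, and in untreated wt 2 of 4 lacked one in untreated HDAC3 KO, against 29.3%. Among peaks at or above their list's median the untreated difference was -0.086 kb, and with the top 20000 peaks by score from each list it came to 0.593 kb, so its direction changed with the score setting.

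Just outside the lower edge of the Mrc1 window all 4 libraries had a peak, 319 bp away in LPS-treated HDAC3 KO (score 182), 623 bp in LPS-treated wt (114), 298 bp in untreated HDAC3 KO (211) and 618 bp in untreated wt (319). On the other side the nearest peak was 283 kb away in LPS-treated HDAC3 KO, 700.4 kb in LPS-treated wt, 503 kb in untreated HDAC3 KO and 256 kb in untreated wt. Its protein-coding neighbours in the GRCm38.p6 annotation are Tmem236 and the zinc transporter gene Slc39a12. At Arg1 the nearest outside peak on the lower side was 9.70 to 9.77 kb away in the 4 libraries, and on the upper side 12.8 kb in LPS-treated HDAC3 KO, 98.7 kb in LPS-treated wt, 91.5 kb in untreated HDAC3 KO and 155 kb in untreated wt.

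Chi3l3 and Retnla had no peak in any of the 4 libraries. Windows without a peak in any library are common: 66.8% of all 50-kb windows and 73.7% of all 30-kb windows, counted from each chromosome's start to its last peak, held none. The emptiness extended beyond the windows. At Chi3l3 the stretch without a peak was 523 kb long in LPS-treated HDAC3 KO, 522 kb in LPS-treated wt, 522 kb in untreated HDAC3 KO and 522 kb in untreated wt. Gaps at least this long made up 1.74 to 2.19% of the gaps between neighbouring peaks in the 4 lists, whose median gap was 3.91 to 5.71 kb. Retnla lay in a stretch of 2982 kb in each of the 4 libraries, and 98 to 103 gaps of a list (0.210 to 0.261%) were at least as long. These shares count gaps and not bases, and a long gap takes up more of the genome than a short one. They therefore do not give how often a gene lies in a stretch of this length, which is more often than the shares by number.

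The gap at Chi3l3 was bounded by nearly the same places in each list. The nearest peaks lay 177 to 178 kb before the window and 295 kb after it. At 106285034 to 106287874 the peak that closed the gap measured 2841 bp in LPS-treated HDAC3 KO (score 459, percentile 79.9), against 908 bp in LPS-treated wt (310, percentile 71.7), 1194 bp in untreated HDAC3 KO (273, percentile 76.2) and 1206 bp in untreated wt (275, percentile 78.6). The annotation places Chil3 between Chia1, a chitinase gene, and Chil4, a closely related chitinase-like gene.

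At Retnla the nearest peak after the window was 133 or 134 kb away in each library. It measured 1300 bp in LPS-treated HDAC3 KO (score 605, percentile 85.2), 1305 bp in LPS-treated wt (909, percentile 91.7), 1114 bp in untreated HDAC3 KO (492, percentile 89.9) and 1190 bp in untreated wt (632, percentile 94.9). The nearest peak before the window was 2818 or 2819 kb away. Retnla stands between its family members Retnlb and Retnlg in the annotation. Since the files hold peaks and not reads, acetylation too weak to be called at these genes was not detectable here and is not shown to be absent.

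**Figure D5:**
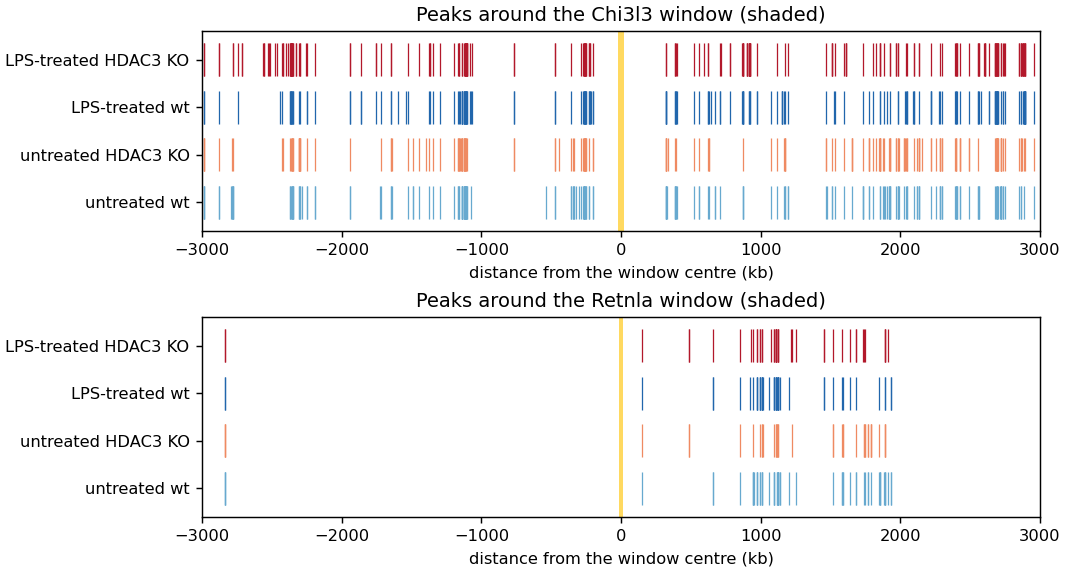
Peaks within 3000 kb of the Chi3l3 and Retnla windows (shaded), by library, each line marking the centre of 1 peak, with the distance from the window centre in kb on the x axis. Neither window carries a peak in any library, and the peak-free stretches have nearly the same bounds in all 4 rows, 522 to 523 kb long at Chi3l3 and 2982 kb at Retnla.

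Of the 4 regions called in every library, LPS-treated HDAC3 KO had longer cover than LPS-treated wt in 4, and untreated HDAC3 KO longer cover than untreated wt in 3. LPS-treated cells had longer cover than untreated cells in the 3 such regions at Arg1 and shorter cover in the 1 at Mrc1, in both genotypes. The share over all regions called in every library is not given here, and the Arg1 window was picked through LPS-treated HDAC3 KO. Nothing is therefore read from these counts. Peak length depends on depth and on the efficiency of the immunoprecipitation, and LPS-treated HDAC3 KO had the highest median peak width over the whole genome, 836 bp against 722, 691 and 590.0 bp in LPS-treated wt, untreated HDAC3 KO and untreated wt. The part of these in the lengths given here was not tested.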

How the data were processed

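Bowtie and mm9 are named in the submitters' processing notes, and per the file headers peaks were called with MACS against an input library, separately for each of the 4 libraries. Versions and settings are not given in the sources used here. Each line of the deposited files is 1 peak with its bounds and score. The score is as the authors deposited it, with no stated scale. Depth per library is unknown.

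Peaks overlapping the 4 windows by at least 1 bp were taken, and cover was counted within the window, in positions counted from 1. A partner is a peak of the other list that overlaps by at least 1 bp. Ratios of cover have 500 bp added to both values. Backgrounds use all peaks of a list, or windows of the same width tiled over each chromosome. All regions were named. The members, windows and settings were chosen with earlier results of these data known. The planned lists of other alternative activation genes and of cell type markers need an mm9 annotation and were not run. Promoter sequences are from RefSeq on GRCm38.p6, and 3 of the 4 genes were matched by symbol. Overlap and cover counts were tested on simulated lists. The work used pandas 2.3.3 and numpy 2.4.6 under Python 3.11.15, with matplotlib 3.10.9 for plots. Alternatives are listed in the closing section.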

Additional observations from a re-analysis of the deposited data

How the results depend on the processing

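No paired analysis was possible because each group had 1 library, so no result had a test, and no replicate could be left out. At Arg1 the difference between LPS-treated HDAC3 KO and LPS-treated wt kept its direction and stayed within 1.5 times its size under each alternative run. The locus was picked through a high-scored peak of this comparison, which favours that outcome, so it is no support for the difference. Chi3l3 and Retnla had no peak under any of them. That was settled beforehand, because no setting adds a peak and the nearest peaks lay farther away than the 20-kb extension. Values that moved by more are given here as differences in cover (kb). With only peaks that reach the median score of their list, or the 20000 highest-scored peaks, untreated HDAC3 KO minus wt was 0.758 at Arg1 under both. Under these settings LPS-treated HDAC3 KO minus wt was 0 at Mrc1 and LPS minus untreated HDAC3 KO there was -2.07, while untreated HDAC3 KO minus wt at Mrc1 was -0.086 and 0.593. With cover scaled to each list's total, LPS minus untreated HDAC3 KO at Arg1 was 8.07 and LPS-treated HDAC3 KO minus wt at Mrc1 0.292. With peaks within 500 bp joined, LPS minus untreated wt at Arg1 was 1.56. With windows extended by 20 kb, LPS-treated HDAC3 KO minus wt at Mrc1 was 1.52 and LPS minus untreated wt there -4.00. With peaks scored at least 100, chosen after seeing the data, LPS minus untreated wt at Arg1 was 0.422, and at Mrc1 LPS-treated HDAC3 KO minus wt was -0.634, untreated HDAC3 KO minus wt -0.086 and LPS minus untreated HDAC3 KO -2.07. The genotype difference at Mrc1 thus turned with the score minimum, and the Mrc1 loss with LPS kept its direction in both genotypes throughout.

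Counts of peaks without a partner over the 4 windows were small and moved more. In LPS-treated HDAC3 KO against LPS-treated wt the count of 10 of 16 peaks became 5 of 8 with joined peaks. Against untreated HDAC3 KO the count of 9 of 16 became 4 of 8. In LPS-treated wt against LPS-treated HDAC3 KO, 0 of 7 became 1 of 11 with extended windows and 1 of 4 with the score minimum of 100. In untreated HDAC3 KO against untreated wt, 4 of 11 became 1 of 4 with the median and top 20000 and 1 of 6 with score 100. It became 2 of 7 with joined peaks and 2 of 11 with a partner within 500 bp. In untreated wt against untreated HDAC3 KO, 3 of 9 became 1 of 3 with the median and 1 of 4 with score 100. It became 0 of 2 with the top 20000 and 6 of 16 with extended windows. In untreated HDAC3 KO against LPS-treated HDAC3 KO, 3 of 11 became 1 of 4 with the median and top 20000. It became 1 of 6 with score 100 and 5 of 16 with extended windows. In LPS-treated wt against untreated wt, 2 of 7 became 1 of 3 with the median and the top 20000 and 1 of 4 with joined peaks. It became 1 of 7 with a partner within 500 bp and 0 of 4 with score 100. In untreated wt against LPS-treated wt, 4 of 9 became 2 of 3 with the median and 1 of 2 with the top 20000. It became 1 of 4 with score 100 and 8 of 16 with extended windows. A partner that must cover at least 50% of a peak moved none of these counts beyond 1.5 times. The cause of these moves was not tested. Fewer peaks enter under the score settings and with joined peaks, where neighbours are counted as 1, and more under extended windows. Shares over all peaks are not given for these settings, so nothing further is read from the counts.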
